A study of Mus musculus with 10 samples.

Results

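Kupffer cells are the resident macrophages of the liver, and 6 genes that mark them or macrophages in general were followed here: Cd5l, C1qa, C1qb, C1qc, Lyz2 and Cd68. They were chosen by name, with earlier results of these data known, through probe sets that the platform annotation assigns to that gene alone. All 6 were measured, among 8251 genes in all, and where a gene had several probe sets the brightest over the 10 arrays stood for it. Liver RNA was measured on Affymetrix MG_U74Av2 arrays, on which short oligonucleotides capture labelled RNA, and values are log2 signals, where 1 unit is 2-fold.

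There were 5 groups of male mice, each with the RNA of 5 livers combined into 1 pool that was hybridised to 2 arrays. The TgSREBP-1a pool came from mice with a transgene for the nuclear, active form of human SREBP-1a, and the TgSREBP-2 pool from mice with that of human SREBP-2; SREBPs are transcription factors of lipid synthesis. Both lines, and littermates without a transgene as wild type, were fed high protein/low carbohydrate food for 2 weeks, which serves to raise transgene expression, at an age of 12 to 16 weeks. The littermates are called high-protein wild type here. Scap knockout mice (Scap-/-;MX1-Cre) lacked SCAP, the escort protein that SREBPs need for activation. At 10 to 12 weeks of age, these chow-fed knockouts and chow-fed wild type mice had 4 injections of polyinosinic-polycytidylic acid, an inducer of interferon, the last one 14 days before liver removal. The interferon-inducible Mx1 promoter that drives Cre is active in blood-forming cells and macrophages as well as in hepatocytes, so loss of Scap need not be limited to hepatocytes, although the series calls the knockout specific to liver. The promoter of the transgenes is not given in the sources used here. Because both arrays of a group hold the same pool, the p-values compare pools, carry no spread between mice, and measure only the spread between hybridisations. In whole liver RNA, fewer macrophages and less RNA per macrophage cannot be told apart.

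Macrophages engulf particles and degrade them in lysosomes. C1qa, C1qb and C1qc encode the A, B and C chains of C1q, the recognition part of the classical complement pathway, which macrophages make while hepatocytes make most other complement proteins. Cd5l encodes a secreted scavenger receptor cysteine-rich protein, also called AIM, which is made by tissue macrophages, circulates with IgM and is a known target of the liver X receptors. Lyz2 encodes lysozyme M, which cuts bacterial cell walls, and is also expressed by monocytes and neutrophils. Cd68 encodes macrosialin, a glycoprotein of the lysosomal membrane of macrophages.

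The start regions of C1qb, Cd5l and Lyz2 are shown because these 3 genes were called higher in both transgenic pools than in high-protein wild type, and that of C1qc as the neighbour of C1qb. C1qb, C1qc and C1qa lie side by side on chromosome 4, Cd5l lies on chromosome 3, Lyz2 on chromosome 10 and Cd68 on chromosome 11. RefSeq windows were matched for 5 of the 6 genes, all but C1qa. Each window (build GRCm38.p6) runs 5′ to 3′ from 250 bases before the gene's start to 50 after it. The windows are chr4:136886151-136886450 (minus strand) for C1qb, chr4:136892865-136893164 (minus strand) for C1qc, chr3:87357631-87357930 (plus strand) for Cd5l and chr10:117282223-117282522 (minus strand) for Lyz2. Capitals mark GAGGAA or its reverse complement, the core bound by PU.1, an ETS factor of macrophage development.
C1qb: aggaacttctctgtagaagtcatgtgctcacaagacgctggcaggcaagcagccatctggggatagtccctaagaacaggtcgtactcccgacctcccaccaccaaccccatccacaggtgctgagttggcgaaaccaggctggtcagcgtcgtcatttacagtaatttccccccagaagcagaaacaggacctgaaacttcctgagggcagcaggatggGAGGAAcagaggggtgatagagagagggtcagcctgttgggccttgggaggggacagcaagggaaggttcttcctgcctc
C1qc: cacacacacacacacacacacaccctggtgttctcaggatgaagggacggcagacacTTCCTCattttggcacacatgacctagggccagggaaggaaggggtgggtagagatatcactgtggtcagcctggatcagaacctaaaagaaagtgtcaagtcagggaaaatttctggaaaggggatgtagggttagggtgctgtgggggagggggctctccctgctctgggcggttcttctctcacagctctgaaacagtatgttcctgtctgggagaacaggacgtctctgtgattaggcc
Cd5l: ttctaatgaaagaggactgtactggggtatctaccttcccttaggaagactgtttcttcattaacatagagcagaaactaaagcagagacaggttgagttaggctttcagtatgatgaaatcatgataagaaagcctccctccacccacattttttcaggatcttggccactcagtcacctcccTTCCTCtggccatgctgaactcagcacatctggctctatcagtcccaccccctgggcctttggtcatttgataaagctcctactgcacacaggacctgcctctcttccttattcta
Lyz2: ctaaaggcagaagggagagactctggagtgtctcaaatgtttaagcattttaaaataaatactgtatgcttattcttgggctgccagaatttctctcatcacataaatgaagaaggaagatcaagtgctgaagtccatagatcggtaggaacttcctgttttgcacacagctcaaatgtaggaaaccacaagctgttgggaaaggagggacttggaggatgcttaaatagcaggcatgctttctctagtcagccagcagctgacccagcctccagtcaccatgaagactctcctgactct

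On either strand, 1 match of GAGGAA was found in the windows of C1qb, C1qc and Cd5l, and 2 in that of Cd68, but none in that of Lyz2. Of 32851 such windows of all genes, 28.3% hold this motif. The sterol regulatory element TCACNCCAC (in 1.2% of all windows) and the E-box CACGTG (in 7.2%), both sequences that SREBPs can bind, were searched on both strands and matched none of the 5 windows. A match of letters is a description and not evidence of binding.

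All 6 markers had their lowest signal in the high-protein wild type pool. Both arrays of that pool lay below all 8 other arrays for 6 of 6 markers, against 7.88% of all genes. Because the markers were chosen with earlier results of these data known, this share is a description and not a test. In TgSREBP-1a and TgSREBP-2 livers on the same diet as that pool the signals were higher. Against chow-fed wild type, Cd5l was above it in both transgenic pools, while the 3 C1q chains, Lyz2 and Cd68 lay between -0.21 and 0.20 log2 in TgSREBP-1a and between -0.54 and -0.13 in TgSREBP-2. Scap knockout livers differed little from their own wild type controls, with Cd5l as the marker farthest apart.

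Cd5l had log2 signals of 9.09 and 8.64 on the TgSREBP-1a arrays, 8.95 and 8.60 on those of TgSREBP-2, and 7.43 and 7.23 in high-protein wild type. In the chow set it had 7.70 and 7.71 in Scap knockout, against 8.09 and 8.26 in wild type. It spanned the widest range of the 6 markers, 1.53 log2 between pool means. The order from low to high was high-protein wild type, Scap knockout, chow-fed wild type, TgSREBP-2 and TgSREBP-1a, and only the arrays of the 2 transgenic pools overlapped.

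C1qb had 8.68 and 8.58 in TgSREBP-1a, against 8.32 and 8.11 in the TgSREBP-2 pool and 7.54 and 7.53 in high-protein wild type. In the chow set it had 8.65 and 8.62 in Scap knockout, against 8.71 and 8.80 in wild type. Its range was 1.22. The TgSREBP-1a arrays overlapped those of Scap knockout, with chow-fed wild type above them and TgSREBP-2 between these pools and high-protein wild type.

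C1qa had 9.42 and 9.40 in TgSREBP-1a, against 9.23 and 9.05 in the TgSREBP-2 pool and 8.77 and 8.70 in high-protein wild type. In the chow set it had 9.34 and 9.29 in Scap knockout, against 9.26 and 9.28 in wild type. No neighbours in its order overlapped, although chow-fed wild type and Scap knockout lay only 0.05 apart. C1qc had 10.23 and 10.30 in TgSREBP-1a, against 9.92 and 9.90 in the TgSREBP-2 pool and 9.51 and 9.46 in high-protein wild type. In the chow set it had 10.05 and 10.13 in Scap knockout, against 10.01 and 10.12 in wild type. The order of the pools was the same for C1qa and C1qc, but for C1qc the 2 chow pools overlapped.

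Lyz2 had 7.80 and 7.40 in TgSREBP-1a, against 7.64 and 7.40 in the TgSREBP-2 pool and 6.94 and 6.78 in high-protein wild type. In the chow set it had 7.54 and 7.60 in Scap knockout, against 7.76 and 7.87 in wild type. Apart from high-protein wild type, neighbouring pools in its order all overlapped. Cd68 had 7.71 and 7.42 in TgSREBP-1a, against 7.22 and 7.28 in the TgSREBP-2 pool and 6.97 and 7.04 in high-protein wild type. In the chow set it had 7.52 and 7.55 in Scap knockout, against 7.41 and 7.57 in wild type. Both chow pools and TgSREBP-1a overlapped in turn, above TgSREBP-2.

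**Figure D1:**
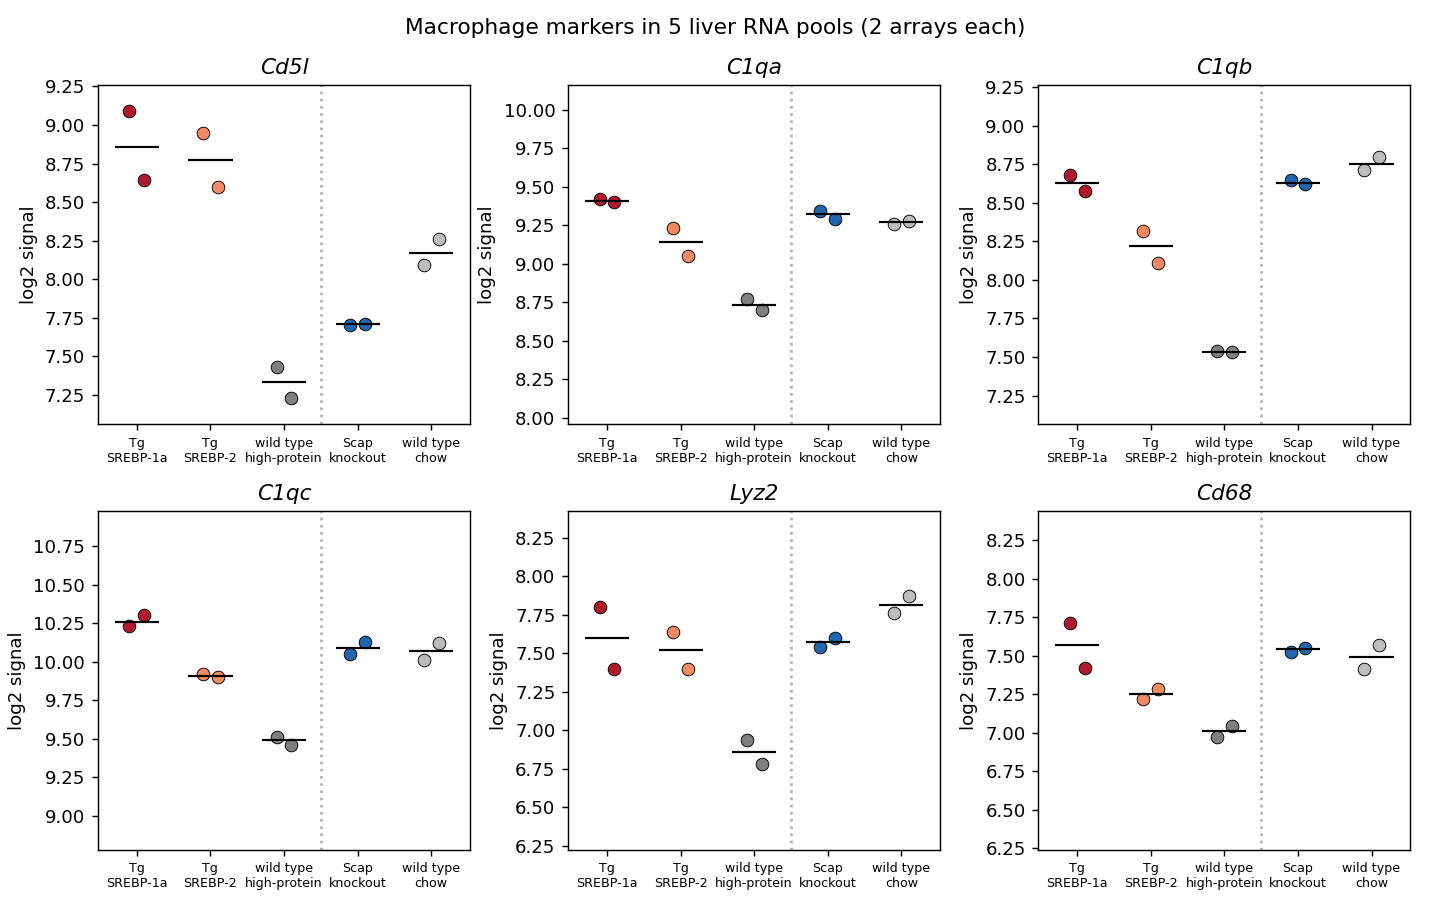
Log2 signal (vertical axis, each panel spanning the same width) of each marker on the 2 arrays (points) of each RNA pool, with the pool's mean as a line; the dotted line separates the high-protein set from the chow set. Wild type on the high-protein diet is lowest in all 6 panels, and the 2 Cd5l arrays of TgSREBP-1a lie 0.45 apart.

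The first comparison set the TgSREBP-1a pool against the high-protein wild type pool, the pool with the lowest mean for all 6 markers. Relative to wild type on the same diet, 5 of 6 rose; a call needed 1.5-fold or more and an adjusted p below 0.05, and 4.78% of all genes were called higher. Cd5l rose 2.89-fold (log2 difference 1.53 ± 0.16, SE of the limma fit with n = 2 arrays a pool, adjusted p = 6.89e-05). C1qb rose 2.13-fold (1.09 ± 0.09, adjusted p = 1.29e-05 in limma), C1qc 1.71-fold and C1qa 1.60-fold. On the log2 scale these last chains stood at 0.77 ± 0.08 and 0.68 ± 0.08. The order of the chains rests on the brightest C1qb probe set, since over the mean of its probe sets C1qb stood at 0.61, still called.

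Lyz2 rose 1.67-fold in TgSREBP-1a (0.74 ± 0.13, adjusted p = 0.00335 in limma), but fell short of 1.5-fold without replicate 1 of TgSREBP-1a (0.54) and over the mean of its probe sets (0.46). Cd68 stood at 0.56 ± 0.10 (adjusted p = 0.00407 in limma), just short of 1.5-fold, and was called without replicate 2 of TgSREBP-1a (0.71) or of wild type (0.60). All 4 array pairs were higher in TgSREBP-1a for each of the 6 markers, while 23.3% of all genes had such separation upward. The median of the 6 was 0.75, against -0.027 over all genes.

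In TgSREBP-2 livers 3 of 6 rose, where 2.18% of all genes were called higher. Cd5l rose 2.71-fold (log2 difference 1.44 ± 0.16, adjusted p = 0.000405 in limma), C1qb 1.60-fold (0.68 ± 0.09) and Lyz2 1.58-fold (0.66 ± 0.13). C1qc at 0.42 ± 0.08 and C1qa at 0.41 ± 0.08 passed the adjusted p (0.0124 and 0.0189 in limma) but not 1.5-fold. With the high-protein arrays fitted alone, C1qc and C1qa did not pass the adjusted p (0.0606 and 0.103 in limma). Cd68 passed neither threshold (0.24 ± 0.10, adjusted p = 0.267 in limma). All 4 pairs were again higher for 6 of 6 markers, against 20.5% of all genes. Without replicate 1 of TgSREBP-2 only Cd5l was called, with C1qb at 0.57 and Lyz2 at 0.54 (adjusted p = 0.167 in limma), and Lyz2 also lost its call when replicate 2 of the wild type pool was left out (0.58, adjusted p = 0.0996) and with the high-protein arrays fitted alone (adjusted p = 0.0791). Over the mean of all probe sets of a gene, C1qb stood at 0.45 and Lyz2 at 0.34, neither of them called. Both transgenic pools were set against the same wild type pool, so the increases in one are not independent of those in the other.

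The transgenic pools were also compared directly. Limma called 0 of 6 markers, where 5.19% of all genes were called in either direction and 4 of the 6 had an unadjusted p under 0.05. C1qb was higher in TgSREBP-1a by 0.41 ± 0.09 (adjusted p = 0.0136) and C1qc by 0.36 ± 0.08 (adjusted p = 0.0147), both under 1.5-fold, with all 4 array pairs higher, as for 4 of the 6 markers and 22.3% of all genes. With the high-protein arrays fitted alone, the adjusted p was 0.0608 for C1qb and 0.0568 for C1qc in limma. Over the mean of its probe sets C1qb differed by 0.15 (adjusted p = 0.232 in limma). Cd5l differed by 0.09 ± 0.16, with a 95% interval of -0.26 to 0.44, and Lyz2 by 0.08 ± 0.13, with an interval of -0.22 to 0.37. For these last markers TgSREBP-1a was not distinguished from TgSREBP-2 at the spread between arrays, and the sign turned without replicate 1 of TgSREBP-1a (-0.14 and -0.12) or replicate 2 of TgSREBP-2 (-0.08 and -0.05).

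In Scap knockout livers limma called 0 of 6 markers against chow-fed wild type, where 1.66% of all genes were called and 1 of the 6 had an unadjusted p under 0.05. That marker was Cd5l, 1.38-fold lower (log2 difference -0.47 ± 0.16, adjusted p = 0.24) and lower in 4 of 4 array pairs. Its adjusted p was 0.00222 when only the 4 chow arrays, which had the tightest duplicates, set the spread, again with a difference under 1.5-fold. Lyz2 stood at -0.24 ± 0.13 and C1qb at -0.12 ± 0.09, also lower in all array pairs. C1qa, Cd68 and C1qc lay between 0.02 and 0.05, with 95% intervals within -0.19 to 0.28. Over the 6 markers the median was -0.05, and 3 were lower and 1 higher in all array pairs, against 21.1% and 22.6% of all genes.

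**Figure D2:**
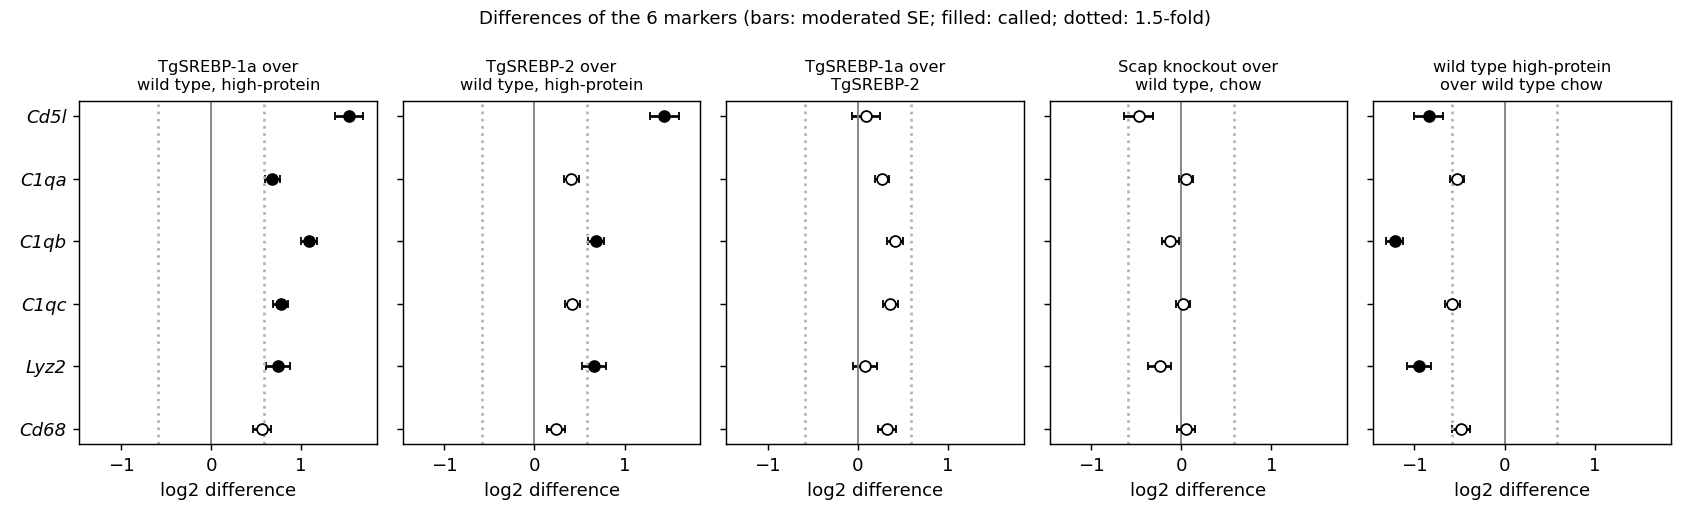
Log2 difference of each marker (horizontal axis) in 5 comparisons, with bars for the moderated SE of the limma fit, filled points for called genes and dotted lines at 1.5-fold. Cd5l reaches 1.53 and 1.44 in the transgenic pools, and in Scap knockout no point passes 1.5-fold.

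The wild type pools of the high-protein and the chow set were compared as well. Of the 6 markers 3 fell, where 4.34% of all genes were called lower. C1qb fell by 1.22 ± 0.09 log2 (adjusted p = 1.53e-05 in limma), Lyz2 by 0.95 ± 0.13 (adjusted p = 0.00113) and Cd5l by 0.84 ± 0.16 (adjusted p = 0.0048), the last not called without replicate 2 of chow-fed wild type (adjusted p = 0.0593). C1qc at -0.58 ± 0.08, C1qa at -0.53 ± 0.08 and Cd68 at -0.48 ± 0.10 passed the adjusted p but not 1.5-fold, and C1qc passed both without replicate 1 of either pool (-0.60 and -0.64). Cd68 did not pass the adjusted p over the mean of its probe sets (-0.11, adjusted p = 0.494 in limma) or when replicate 2 of chow-fed wild type was left out (-0.40, adjusted p = 0.106). All 4 pairs were lower for 6 of 6, against 33.8% of all genes. Diet, age, the injections and possibly mouse line differ together between these pools and cannot be told apart.

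Set against chow-fed wild type instead, a comparison added after the data were seen and open to the same differences, TgSREBP-1a had 1 marker called higher (2.88% of all genes were) and TgSREBP-2 also 1 (1.94% of all genes). It was Cd5l in both, at 0.69 ± 0.16 (adjusted p = 0.011 in limma) and 0.60 ± 0.16 (adjusted p = 0.0323). The other markers ranged from -0.21 (Lyz2) to 0.20 (C1qc) in TgSREBP-1a, and from -0.54 (C1qb, adjusted p = 0.0034 in limma) to -0.13 (C1qa) in TgSREBP-2. Against the chow-fed pool, no C1q chain, nor Lyz2 or Cd68, was called higher in either transgenic pool.

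The other probe sets of the markers were dimmer and did not always move as the ones used. For C1qb the second probe set, with a mean of 6.43 over the arrays against 8.35 for the one used, gave 0.12 in TgSREBP-1a, 0.22 in the TgSREBP-2 pool, -0.10 between the transgenic pools and -0.29 between the wild type pools. The second probe sets of Lyz2 and Cd68 had means of 3.89 and 4.11, at the 6.5 and 9.5 percentile of all probe sets, with differences of 0.18 and 0.14 in TgSREBP-1a. Between the wild type pools the second probe set of Cd68 stood at 0.26, opposite in sign to the one used (-0.48), and that of Lyz2 at -0.31. The low Cd68 signal of high-protein wild type is therefore a result of the brighter probe set alone. A further probe set is annotated to both Lyz2 and its near-identical neighbour Lyz1 and was left out, and the signal of Lyz2 itself may include Lyz1 RNA.

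The 6 markers did not all follow 1 pattern. Likeness was measured as the root mean square distance between pool means over the 5 pools, after each gene was centred on its own mean. C1qa and C1qc lay 0.035 log2 apart, and C1qa was the nearest of 8250 genes to C1qc. Cd68 lay 0.057 from C1qa and 0.075 from C1qc. C1qb followed the same direction with a wider range and lay 0.218 from C1qc, while Lyz2 lay 0.166 from C1qb. Cd5l lay 0.465 to 0.535 from the other 5 markers, with higher transgenic and lower Scap knockout values relative to its own mean.

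Across all genes, the 3 patterns nearest to Cd5l were those of Rdh11, a retinol dehydrogenase (0.188), Nampt, an enzyme of NAD synthesis (0.200), and Asah1, the lysosomal acid ceramidase (0.202). The 3 nearest to C1qb were Adh1, an alcohol dehydrogenase (0.133), Cd74, the invariant chain of class II antigen presentation (0.143), and Sgk1, a serine/threonine kinase (0.147). Cd74 had pool means of 9.89 in TgSREBP-1a, 9.30 in the TgSREBP-2 pool and 8.94 in high-protein wild type, and 10.13 in Scap knockout against 10.16 in chow-fed wild type. The 4 genes that flank Cd68, Sox15, Mpdu1, Eif4a1 and Senp3, ranged from -0.09 to 0.23 in TgSREBP-1a, none of them called. Of the genes that flank the C1q genes Epha8 was measured, at -0.10 in TgSREBP-1a and 0.33 between the wild type pools.

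Among 33 further macrophage and monocyte genes 5 rose and none fell in TgSREBP-1a, where 4.78% of all genes were called higher. Of the 33 differences 27 were above 0, with a median of 0.30 against -0.027 over all genes. The 5 were the lysosomal protease Ctss (0.87 ± 0.18), the lectin Lgals3 (0.87 ± 0.10), the complement regulator Cfp (0.84 ± 0.12), the tetraspanin Cd53 (0.79 ± 0.19) and the pore-forming protein Mpeg1 (0.70 ± 0.12). Of 5 further Kupffer cell genes limma called 0, where 4 had an unadjusted p under 0.05. Their differences were 0.16 to 0.48, with Clec4f, a lectin particular to Kupffer cells, at 0.48. The probe set of Clec4f was brighter than 94% of all genes over the arrays, and that of the macrophage receptor Csf1r, named after its values were seen, brighter than 80.2%. That of Lgals3 was dim, brighter than 13.7%, with means of 5.38 in TgSREBP-1a and 4.51 in high-protein wild type. In TgSREBP-2 the medians were 0.13 for the Kupffer cell and 0.03 for the macrophage genes, with 4 of 5 and 20 of 33 differences above 0. Of these 38 genes only Ly6e (0.81 ± 0.07) and Mpeg1 (0.74 ± 0.12) rose, where 2.18% of all genes were called higher. The probe set of Ly6e was brighter than 99.8% of all genes. Its signal in whole liver need not come from macrophages, and its cell source was not tested.

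Directly between the transgenic pools, the scavenger receptors Marco (0.77 ± 0.18) and Msr1 (0.64 ± 0.09) were higher in TgSREBP-1a, where 2.24% of all genes were called higher. Between the wild type pools, Marco was lower in the high-protein pool by 0.71 ± 0.18, Ly6e by 0.86 ± 0.07, and Ctss and Mpeg1 each by 0.66. These pools differ in age and injections as well as diet, and 4.34% of all genes were called lower. Of all 38 further Kupffer cell and macrophage genes, 17 had their lowest pool mean in high-protein wild type, against 21.3% of all genes. In 12 of them both arrays of that pool lay below all 8 others, against 7.88%. These lists, too, were chosen with earlier results of these data known, so the shares are no test. The rest of the 38, the larger part, had their lowest mean in another pool. They included Cd14, the lipopolysaccharide co-receptor, at 0.48 between the wild type pools, and Fcer1g, a signalling chain of Fc receptors, at 0.57. In Scap knockout limma called 0 of the 38 genes, where 4 had an unadjusted p under 0.05.

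**Figure D3:**
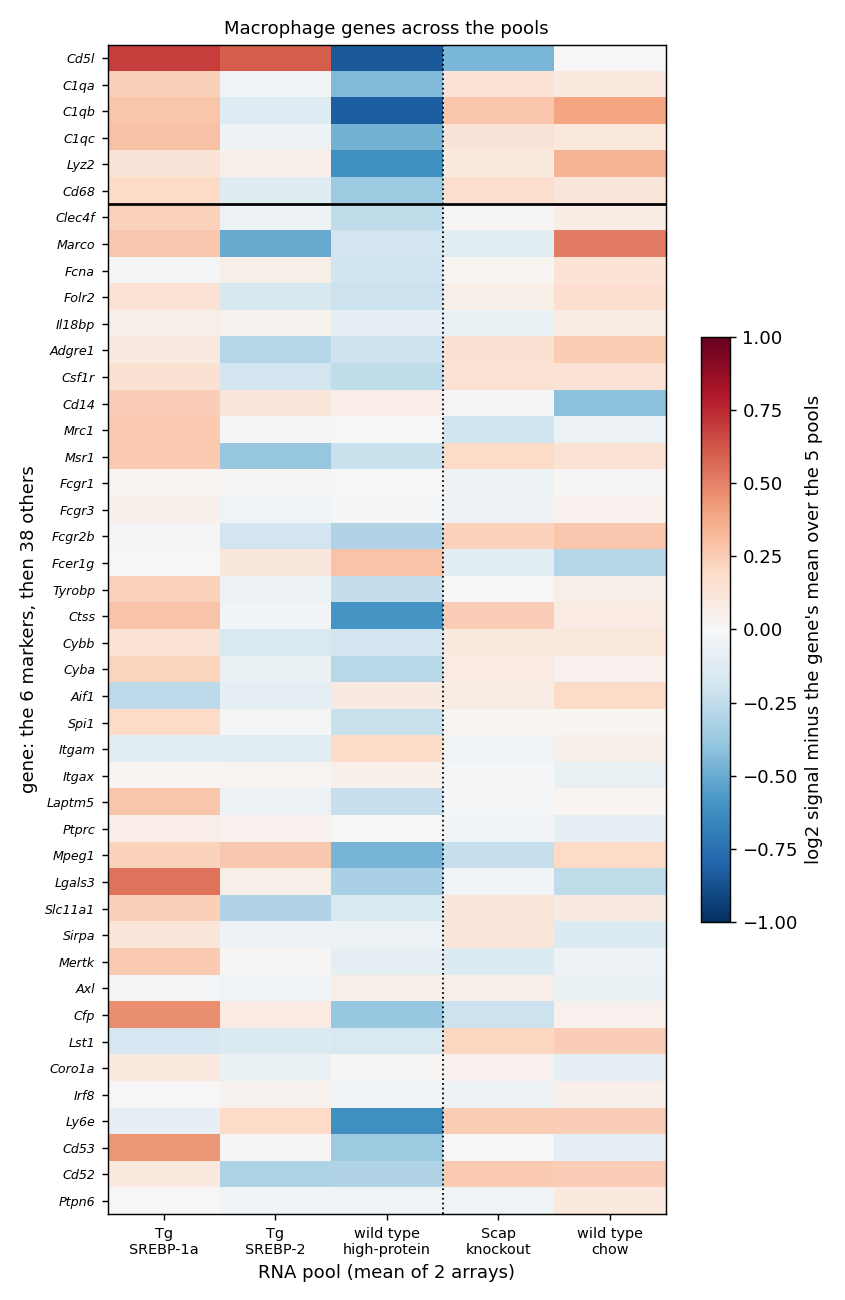
Pool means of the 6 markers (above the line) and of 38 other Kupffer cell and macrophage genes, as log2 signal minus each gene's mean over the 5 pools (colour). The column of high-protein wild type is below 0 for all 6 markers, and is the lowest pool for 17 of the 38 others.

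Genes of related functions were described in the same way. Of 20 lysosomal genes other than the markers 4 rose in TgSREBP-1a and none fell, where 4.78% of all genes were called higher. The 4 were the sterol carrier Npc2 (1.74 ± 0.11), the protease Ctsd (1.21 ± 0.09), Asah1 (1.11 ± 0.09) and Ctss, which also stands among the macrophage genes above. In TgSREBP-2 Asah1 (0.97 ± 0.09), Npc2 (0.93 ± 0.11) and Ctsd (0.62 ± 0.09) rose, where 2.18% of all genes were called higher. The protease inhibitor Cst3 fell in that pool by 0.62 ± 0.08, where 0.388% of all genes were called lower. In Scap knockout limma called 0 of the 20, where 4 had an unadjusted p under 0.05. Of 5 classical complement partners, which hepatocytes make, 4 fell in TgSREBP-1a, where 2.59% of all genes were called lower. These were C4bp (-1.14 ± 0.14), the protease C1ra that binds C1q (-0.88 ± 0.20), C2 (-0.73 ± 0.10) and the C1 inhibitor Serping1 (-0.72 ± 0.08), so that C1q chains rose in the same pool in which these partners fell. In TgSREBP-2 limma called 0 of the 5, where 1 had an unadjusted p under 0.05.

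Of 10 targets or forms of the liver X receptors, 4 rose in TgSREBP-1a and 2 in TgSREBP-2, where 4.78% and 2.18% of all genes were called higher. In both they were led by the phospholipid transfer protein Pltp (2.94 ± 0.13 and 1.96 ± 0.13) and included the acyltransferase Lpcat3 (1.41 ± 0.10 and 0.86 ± 0.10). In TgSREBP-1a the lipase Lpl (2.19 ± 0.17) and the apolipoprotein Apoc2 (0.85 ± 0.09) rose as well. Lpcat3 was also the 1 gene of that list lower in Scap knockout (-0.82 ± 0.10), where 0.921% of all genes were called lower. Of 17 genes of monocyte recruitment and growth, the chemokines Ccl9 (1.21 ± 0.11) and Ccl2 (0.71 ± 0.17) rose in TgSREBP-1a, where 4.78% of all genes were called higher. The list as a whole did not rise there, with 8 of 17 differences above 0, a median of -0.06 and a lowest value of -0.36. Ccl2 was dim, with means of 5.27 in TgSREBP-1a and 4.56 in high-protein wild type, below the array medians. In Scap knockout Ccl2 rose by 0.90 ± 0.17 and the adhesion molecule Icam1 by 0.61 ± 0.11, where 0.739% of all genes were called higher. Between the wild type pools, where diet, age and injections differ together, Ccl9 was lower in the high-protein pool by 0.80 ± 0.11.

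Markers of other cell types were read beside these results. Limma called 0 of 11 neutrophil genes in any of the 5 comparisons, where 1 had an unadjusted p under 0.05 in each comparison between high-protein pools, and their summed linear signal was 1349 to 1499 in TgSREBP-1a, 1370 to 1491 in the TgSREBP-2 pool and 1404 to 1513 in wild type on the same diet. Of 9 endothelial genes Lyve1 (1.09 ± 0.17) and Cdh5 (0.72 ± 0.12) rose in TgSREBP-1a, where 4.78% of all genes were called higher. Lyve1 was dim, with means of 5.39 in TgSREBP-1a and 4.3 in high-protein wild type, below the array medians. The summed signal of the 9 genes was 1804 to 1843 in TgSREBP-1a, against 1472 to 1483 in high-protein and 1758 to 1869 in chow-fed wild type. Between the wild type pools the endothelial median was -0.20, with 2 of 9 differences above 0 and Ptprb called lower (-0.75 ± 0.10, 4.34% of all genes). Of 13 lymphocyte genes Ighm rose in TgSREBP-1a (1.42 ± 0.08) on its brightest probe set, where 4.78% of all genes were called higher. Its other probe sets ranged from -0.28 to 1.66. On the brightest, Ighm was lower in high-protein than in chow-fed wild type (-0.85 ± 0.08, 4.34% of all genes called lower). It was also lower in Scap knockout (-0.69 ± 0.08), where 0.921% of all genes were called lower. The 12 hepatocyte genes summed to 55778 to 59641 in TgSREBP-1a, below the 64332 to 66564 in the TgSREBP-2 pool and 62852 to 65857 in high-protein wild type. In the chow set they summed to 58377 to 61668 in Scap knockout and 60035 to 60381 in wild type. In TgSREBP-1a 2 of the 12 differences were above 0, with a median of -0.27. Of these 12, 3 fell in TgSREBP-1a, led by Ttr (-1.37 ± 0.10), where 2.59% of all genes were called lower. Of 3 red cell genes Hba-a1 (0.67 ± 0.08) rose and Alas2 (-0.62 ± 0.09) fell in TgSREBP-1a, where 4.78% and 2.59% of all genes were called higher and lower. Hba-a1 rose in TgSREBP-2 as well (0.73 ± 0.08), where 2.18% of all genes were called higher. In TgSREBP-1a limma called 0 of 10 stellate cell genes, where 6 had an unadjusted p under 0.05, and 0 of 4 cholangiocyte genes, where 0 did. The part of these genes in the marker results was not tested.

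Relatives of the markers were read too. The list of 8 other scavenger receptors included Marco and Msr1, named above. Only Dmbt1, which like Cd5l has scavenger receptor cysteine-rich domains, was called in TgSREBP-1a. It fell by 1.67 ± 0.10, where 2.59% of all genes were called lower. The pool means of Dmbt1 were 7.91 in TgSREBP-2, 7.89 in high-protein wild type, 7.22 in chow-fed wild type and 6.22 in TgSREBP-1a. This is also the order of the pancreas gene sums of these pools given below, and a part of pancreas RNA in the Dmbt1 signal was not tested. In TgSREBP-2 limma called 0 of 8, where 0 had an unadjusted p under 0.05. Of 8 genes of the C1q and TNF family and the collectins, only the mannose-binding lectin Mbl2 rose in TgSREBP-1a (0.65 ± 0.11), where 4.78% of all genes were called higher. Between the transgenic pools Mbl1 was lower in TgSREBP-1a (-0.69 ± 0.09), where 2.95% of all genes were called lower.

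RNA of exocrine pancreas differed between the pools. The summed signal of 7 pancreas genes was 1350 to 1352 in TgSREBP-1a, 21886 to 22065 in the TgSREBP-2 pool and 16037 to 16500 in high-protein wild type. Of these genes 6 were higher in high-protein wild type than in chow-fed wild type, where 1.28% of all genes were called higher. The sum was 1822 to 1916 in Scap knockout against 7800 to 7962 in chow-fed wild type. Duplicates were less alike in the high-protein set, with 151 genes at least 1.5-fold apart in TgSREBP-1a, 55 in the TgSREBP-2 pool and 101 in wild type, against 6 in Scap knockout and 0 in chow-fed wild type. For Gapdh the 3′ minus 5′ control signal, a sign of RNA quality, was 0.68 to 0.82 log2 on all arrays, and for actin 0.89 to 1.18, lowest in TgSREBP-1a and highest in TgSREBP-2. Their part in the marker results was not tested.

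**Figure D4:**
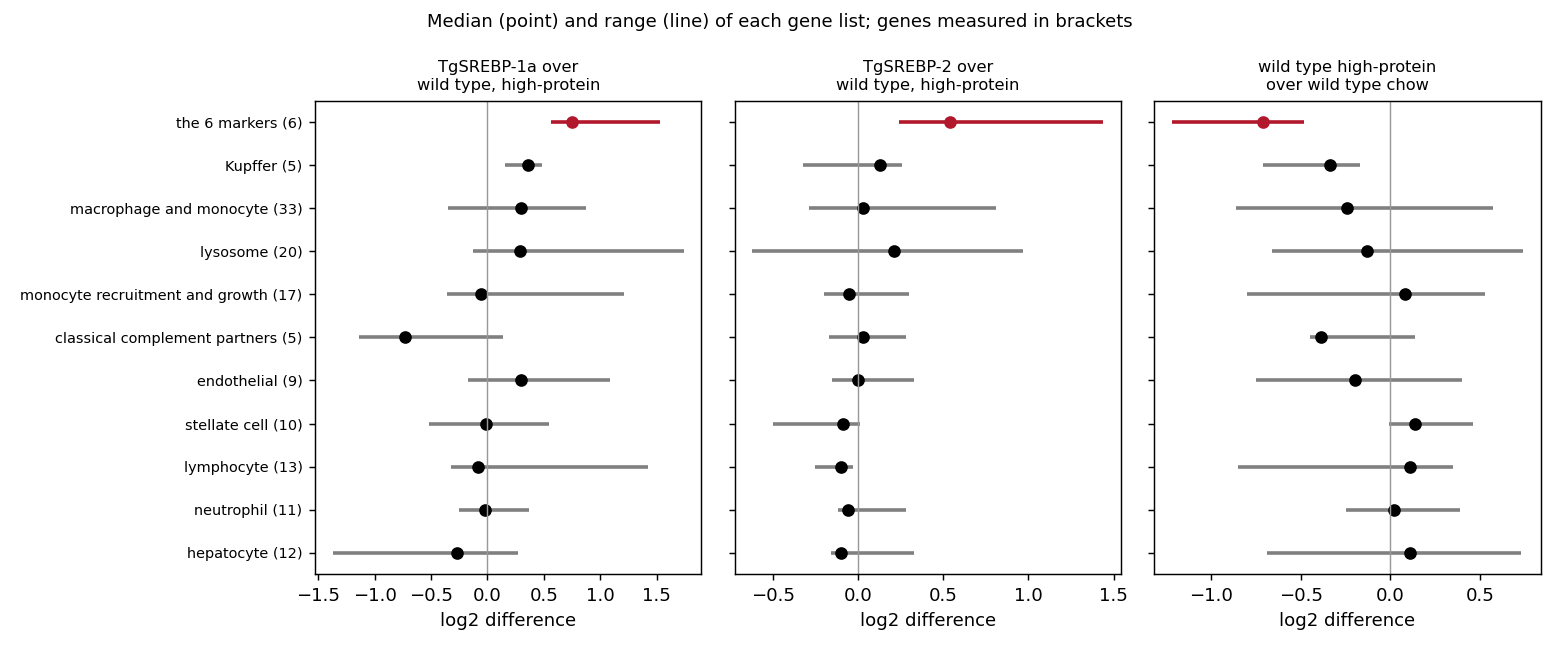
Median (points) and range (lines) of the log2 differences in each gene list for TgSREBP-1a and TgSREBP-2 over high-protein wild type and for high-protein over chow-fed wild type, with the number of genes measured in brackets. The 6 markers have medians of 0.75, 0.54 and -0.71, and the range of the markers lies wholly on 1 side of 0 in each comparison.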

How the data were processed

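Liver RNA of 5 pools, each on 2 arrays, was analysed, and samples were grouped by their titles. The authors deposited 1 table of log2 signals for 12488 probe sets, made with RMA per the submitters' processing notes, with no version stated, although the design text of the series speaks of Microarray Suite 5.0. The values ran from 2.68 to 14.03 with array medians of 6.37 to 6.4, and were used as deposited. The 10833 probe sets with 1 gene symbol were kept, names were updated through RefSeq gene IDs for 10817, and 8251 genes were tested. Controls (66), probe sets with several genes (396) and those with none (1193) were left out.

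Limma 3.58.1 (lmFit, then eBayes; R 4.3.3) fitted 1 level a pool over the 10 arrays, which left 5 residual degrees of freedom, with Benjamini-Hochberg adjustment over all genes in each comparison. Calls needed 1.5-fold or more and an adjusted p below 0.05. Precision is limited by the number of arrays. The script was tested on simulated data. Summed list signals are sums of linear signals. All 6 markers and their probe sets are named. By rule, up to 4 called genes with the largest difference could be named from each list and comparison, but not all of these are given here. Mpeg1, Clec4f, Csf1r, Cd14, Fcer1g and the flanking genes were named after their values were seen. Marker genes were left out of the lists, and some genes stand in more than 1 list. Members and lists were chosen with earlier results of these data known.

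Same-numbered arrays deviated together in the high-protein set (correlations of 0.46 to 0.61 over genes, 3 pairs of pools), which pairs them by number there; the chow set, with 1 such pair, gave 0.30. All printed errors and p-values come from the fit without the pairing, and the block was an alternative. Alternatives were a replicate block, the arrays of 1 set alone, other probe sets, scaling, filter, variance prior and thresholds, and each array left out.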

Additional observations from a re-analysis of the deposited data

How the results depend on the processing

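With the replicate number as a block, 5 markers were called for TgSREBP-1a and 3 for TgSREBP-2. Between the transgenic pools, in Scap knockout and between the wild type pools 0, 0 and 3 were called. These numbers were the same as without the block, and it changed no call of a marker. Between the wild type pools it moved the differences themselves, Cd5l from -0.84 to -0.63 and Lyz2 from -0.95 to -0.77. All 6 markers were less far apart with it, so for that comparison the block is no like-for-like check. With no minimum fold 5 markers were called in TgSREBP-2, 2 between the transgenic pools and 6 between the wild type pools. At 2-fold or more 2 were called for TgSREBP-1a, 1 for TgSREBP-2 and 1 between the wild type pools. Over the mean of all probe sets 1 was called in TgSREBP-2, and Cd68 turned to -0.02 in Scap knockout. Leaving out 1 array at a time gave 4 to 6 markers in TgSREBP-1a, 1 to 3 in TgSREBP-2, 0 between the transgenic pools, 0 in Scap knockout and 2 to 4 between the wild type pools. It turned the sign of Cd5l (-0.14 to 0.32) and Lyz2 (-0.12 to 0.27) between the transgenic pools, and of C1qc (-0.03 to 0.08) and Cd68 (-0.03 to 0.13) in Scap knockout. Against chow-fed wild type, an alternative chosen after seeing the data, 1 marker was called for TgSREBP-1a, where C1qb (-0.13) and Lyz2 (-0.21) turned sign, and 1 in TgSREBP-2, where C1qa (-0.13), C1qb (-0.54), C1qc (-0.16), Lyz2 (-0.29) and Cd68 (-0.24) did. Against wild type on the same diet, Cd5l kept its direction and its call in both transgenic pools under each of the alternatives run for its difference, 1.3 to 1.76 in TgSREBP-1a and 1.26 to 1.61 in TgSREBP-2. At other thresholds the number of genes called moved more than 1.5 times, as to 1366 with no minimum fold and 240 at 2-fold in TgSREBP-1a, against 608. Signal over background was not assessed beyond the dim second probe sets.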
